A study of Mus musculus with 27 samples.

Results

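The genes described here build the kinetochore and run the spindle checkpoint. They are 38 named genes out of the 13527 genes tested on mouse cerebellar arrays, and a gene was measured by probe sets whose annotation names it and no other gene. The 38 genes had 80 such probe sets, of which 73 passed the filter on low signals, and each gene was read from its passing probe set with the highest mean. All 38 had at least 1 passing probe set. For 26 of them the probe set passed only through its signal in tumours, since it exceeded the median of the table (45.6) on fewer than 3 arrays of tissue without tumour. Such a gene needed tumour arrays above that median to be listed, so the filter favours genes that are higher in tumours.

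Total RNA of 27 mouse cerebellar samples was hybridised to 1 Affymetrix array each. Tumours of 4 groups arose where a cre driver had turned on SmoM2, a permanently active Smoothened, the protein that passes on the Hedgehog signal: Math1-cre:SmoM2 (3 arrays), Tlx3-cre:SmoM2 (3), Olig2-tva-cre:SmoM2 (7) and hGFAP-cre:SmoM2 (6). The last group held tumours of Ptc1+/- mice (2), which have a single intact copy of the gene of the Hedgehog receptor Patched and carry no SmoM2 per the labels. The controls were 6 cerebellar samples without tumour. Arrays 1 and 2 held the line Olig2-tva-cre:SmoM2, array 3 the line hGFAP-cre:SmoM2, arrays 4 and 5 the line Mxi1-cre:SmoM2, and array 6 a Ptc1+/- mouse. Every control thus came from a line that also carries SmoM2 or the Ptc1 mutation, none came from Math1-cre or Tlx3-cre lines, and the cre promoters differ in the cells where they are active. The labels give no age. They speak of biological replicates but tie no array to an animal, and the p-values below therefore reflect only how far these samples spread, which may be technical. Arrays are named below by group and by the number in their titles.

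The kinetochore assembles on centromeric chromatin that carries the histone variant CENP-A. An inner layer, the constitutive centromere network, stays there through the cell cycle and recruits the outer complexes that hold microtubules in mitosis. Kinetochores without microtubules produce a checkpoint signal that restrains Cdc20, the activator of the anaphase-promoting complex, until chromosomes are attached. In the cerebellum, dividing granule neuron precursors use this machinery during development, and mature neurons have left the cell cycle.

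The promoters of these genes are known in mammalian cells for 2 short elements, the cell cycle genes homology region (CHR), read by the MuvB complexes, and the CCAAT box, read by NF-Y. Below are 9 windows of 300 bases from RefSeq (GRCm38.p6), each from 250 bases before to 50 bases after an annotated start and written along the strand of the gene. The first 5 are the windows of the 5 members with the largest differences between tumours and tissue without tumour. The last 4 belong to the 4 members with a window that were not called higher over all tumours. They were chosen by the differences, so the sequences can be set beside both ends of the results. Capitals mark matches to TTTGAA or TTTAAA (CHR) and to CCAAT, on either strand, so a CCAAT box on the other strand reads ATTGG.
Cenpa, chr5:30666636-30666935, plus strand: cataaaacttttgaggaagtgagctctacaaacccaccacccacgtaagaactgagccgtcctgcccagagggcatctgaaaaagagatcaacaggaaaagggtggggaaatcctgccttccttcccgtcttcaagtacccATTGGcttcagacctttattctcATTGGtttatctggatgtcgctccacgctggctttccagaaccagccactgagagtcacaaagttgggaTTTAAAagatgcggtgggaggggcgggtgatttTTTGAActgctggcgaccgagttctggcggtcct
Bub1b, chr2:118597961-118598260, plus strand: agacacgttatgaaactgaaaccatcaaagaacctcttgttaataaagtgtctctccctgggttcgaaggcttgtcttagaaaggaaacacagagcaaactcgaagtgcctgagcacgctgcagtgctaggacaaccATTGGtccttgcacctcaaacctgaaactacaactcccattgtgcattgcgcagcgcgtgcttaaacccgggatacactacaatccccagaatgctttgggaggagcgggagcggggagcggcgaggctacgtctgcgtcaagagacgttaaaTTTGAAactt
Birc5, chr11:117848987-117849286, plus strand: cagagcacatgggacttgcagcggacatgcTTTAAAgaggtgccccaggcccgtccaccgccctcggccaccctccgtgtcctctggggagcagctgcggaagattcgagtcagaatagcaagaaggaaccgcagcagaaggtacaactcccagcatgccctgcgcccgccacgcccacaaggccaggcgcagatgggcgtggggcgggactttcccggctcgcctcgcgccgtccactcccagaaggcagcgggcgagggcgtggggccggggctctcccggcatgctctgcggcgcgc
Sgol1, chr17:53689266-53689565, minus strand: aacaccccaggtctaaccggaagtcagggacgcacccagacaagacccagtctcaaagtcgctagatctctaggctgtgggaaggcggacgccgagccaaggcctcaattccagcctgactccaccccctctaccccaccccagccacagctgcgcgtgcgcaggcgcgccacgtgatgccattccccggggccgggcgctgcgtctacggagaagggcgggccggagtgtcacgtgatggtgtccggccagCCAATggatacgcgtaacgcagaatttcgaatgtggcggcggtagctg
Bub1, chr2:127831810-127832109, minus strand: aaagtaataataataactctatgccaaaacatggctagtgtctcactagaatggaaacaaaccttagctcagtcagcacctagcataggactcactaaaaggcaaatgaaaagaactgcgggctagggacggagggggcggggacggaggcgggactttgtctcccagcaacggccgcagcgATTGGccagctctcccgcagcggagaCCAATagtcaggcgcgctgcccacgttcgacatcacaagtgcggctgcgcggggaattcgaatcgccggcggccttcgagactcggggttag
Cenpc1, chr5:86065534-86065833, minus strand: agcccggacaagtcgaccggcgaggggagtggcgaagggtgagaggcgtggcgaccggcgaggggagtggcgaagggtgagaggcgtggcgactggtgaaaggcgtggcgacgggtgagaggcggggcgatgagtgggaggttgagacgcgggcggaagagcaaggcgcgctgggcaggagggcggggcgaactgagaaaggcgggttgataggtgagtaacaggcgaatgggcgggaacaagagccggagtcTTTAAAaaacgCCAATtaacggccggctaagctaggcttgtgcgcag
Mis12, chr11:71019361-71019660, plus strand: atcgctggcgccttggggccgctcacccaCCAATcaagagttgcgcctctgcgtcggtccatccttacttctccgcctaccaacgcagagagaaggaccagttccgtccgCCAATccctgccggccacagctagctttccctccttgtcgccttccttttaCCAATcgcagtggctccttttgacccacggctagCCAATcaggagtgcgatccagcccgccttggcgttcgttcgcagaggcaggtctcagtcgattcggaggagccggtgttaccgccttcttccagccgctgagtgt
Zwint, chr10:72654596-72654895, plus strand: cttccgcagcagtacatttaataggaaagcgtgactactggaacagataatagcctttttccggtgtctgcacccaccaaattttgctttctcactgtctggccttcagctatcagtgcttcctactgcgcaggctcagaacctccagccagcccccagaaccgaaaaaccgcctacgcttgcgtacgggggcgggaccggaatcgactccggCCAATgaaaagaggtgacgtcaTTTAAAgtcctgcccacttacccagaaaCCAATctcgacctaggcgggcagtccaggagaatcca
Mad1l1, chr5:140321503-140321802, minus strand: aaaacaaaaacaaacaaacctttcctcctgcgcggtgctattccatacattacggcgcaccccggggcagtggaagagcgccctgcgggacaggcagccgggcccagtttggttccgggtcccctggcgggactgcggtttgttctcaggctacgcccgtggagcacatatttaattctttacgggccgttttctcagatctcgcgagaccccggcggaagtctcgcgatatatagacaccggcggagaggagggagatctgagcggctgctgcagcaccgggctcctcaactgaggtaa
Both ends held windows with both kinds of match and windows that lacked one. Birc5 had no CCAAT match, Sgol1, Bub1 and Mis12 had no TTTGAA or TTTAAA, and neither window of Mad1l1 had a match of either kind. Other words were not searched for the CHR, so a window without a match may still hold a related element. RefSeq windows were listed for 33 members, 38 windows in all, and Spc24, Nsl1, Zwilch, Aurkb and Incenp had none. A CHR match lay in 19 of the 38 member windows, against 27.6% of all 32851 windows in the table. A CCAAT match lay in 73.7% of member windows, against 37.4% of all windows, and both were found in 42.1% of member windows, against 10.7% of all windows. The E2F words TTTGGCGC and TTTCGCGC, searched on both strands, lay in 1 member window (2.63%, in Cenpl), against 0.813% of all windows. Member windows had a median of 58.3% G and C bases, against 52.7% over all windows. Of the 29 members with a window that were called higher over all tumours, 16 had a CHR match and 21 a CCAAT match, and of the 4 members with a window that were not, 2 had a CHR match and 3 a CCAAT match. These matches describe letters in the windows and say nothing of binding.

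The deposited signals differed in brightness, with trimmed means from 42.6 to 206, and each array was rescaled to a common trimmed mean before log2 values were taken. Signals under the floor of 3.37 on the log2 scale were raised to it. Values below are log2 signals or differences of log2 signals, and because probe sets differ in their response, no gene's level is set against another gene's. Of the tumour arrays, hGFAP array 4 stood apart. It was the lowest of all 21 tumour arrays for 26 of the 38 members. Its median member lay 2.11 above the non-tumour mean, against 2.93 to 3.84 in the other tumour arrays. It also had the highest 3' to 5' ratio of the Gapdh and Actb control probe sets, at 1.88 on the log2 scale. Olig2 array 3, Olig2 array 4 and hGFAP array 6 came near that ratio at 1.72, 1.78 and 1.67. Their median members lay 2.93, 3.34 and 3.18 above the non-tumour mean. Among the tissue without tumour, array 6, from the Ptc1+/- line, had a median member 0.40 above the non-tumour mean and only 4 members at the floor, against 8 to 12 on the other 5 arrays. The markers of cycling cells Mki67, Top2a, Pcna, Mcm2 and Mcm6, none of them a member, had a mean of 7.10 on that array. On the other 5 it was 5.27 to 5.79. Among the tumour arrays the mean of these markers was lowest on hGFAP array 4, at 9.72.

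**Figure D1:**
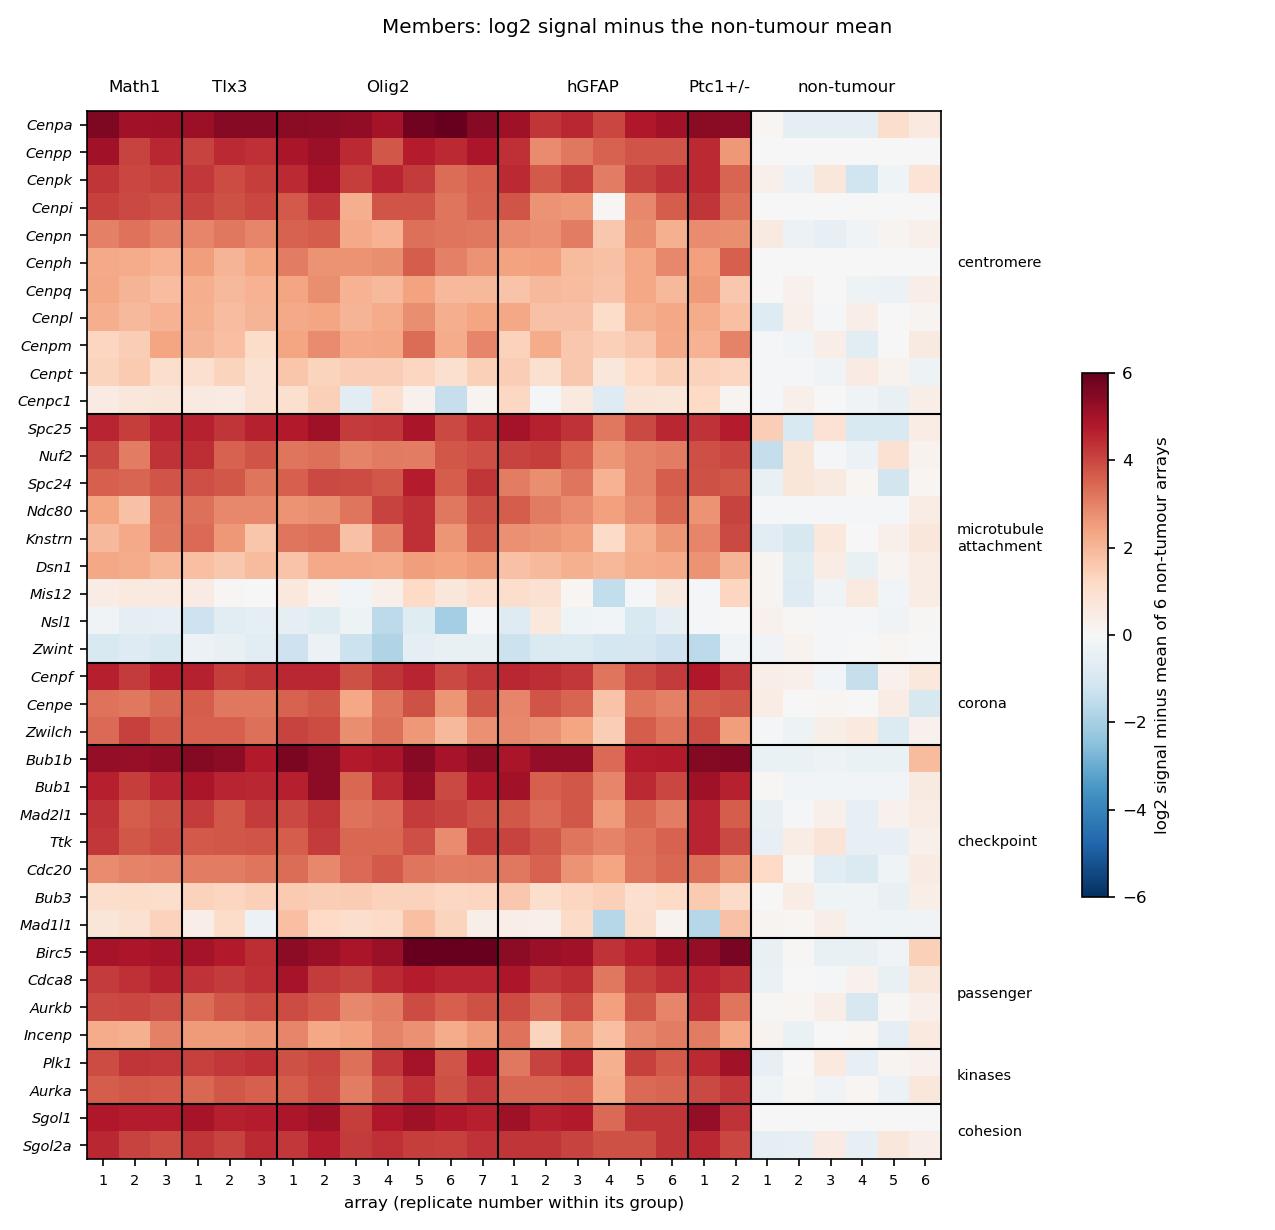
Log2 signal of each of the 38 members (rows, by role) on each of the 27 arrays (columns, by group), shown as the difference from the mean of the 6 non-tumour arrays. Red rows run across all 5 tumour groups, hGFAP array 4 is paler than the other tumour arrays, and Zwint and Nsl1 are pale blue in most tumour columns.

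Tumours of all 5 groups, each with equal weight, were compared with tissue without tumour to see how far the kinetochore and checkpoint genes go together in Hedgehog tumours. The largest differences were those of the histone Cenpa, the checkpoint kinase genes Bub1b and Bub1, the passenger subunit Birc5 and the cohesion protector Sgol1. On the probe sets used they stood at least 22.7-fold higher in tumours, and other probe sets of Cenpa and Bub1 gave less. In all, 33 of the 38 members were higher in tumours. The exceptions were Cenpc1, Mis12, Nsl1 and Mad1l1, which were not called, and Zwint, which was lower on the probe set used. Over all genes tested 52.4% were called, 26.8% higher and 25.6% lower (limma, adjusted p under 0.05). The signal of every tumour array lay above that of every non-tumour array for the same number of members, 33, against 8.14% of all genes. The median member difference was 3.44, with a range from -0.83 to 5.22, and the median over all genes was 0.02. With no filter on low signals, 33 members were still called higher, against 20.1% of 18193 genes. Only 12 members exceeded the table median on at least 3 non-tumour arrays, and Cenpc1, Mis12, Nsl1 and Zwint were among them. The filter thus favours the counts and the median of the members. A larger share of dividing cells and more RNA per cell cannot be told apart in these bulk samples.

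The inner kinetochore was higher in 10 of its 11 members. Cenpa, the centromeric histone H3 variant, had log2 signals from 7.94 to 10.10 with a median of 9.29 in the 21 tumours, against 4.08, 3.37, 3.37, 3.37, 5.00 and 4.52 on non-tumour arrays 1 to 6. The groups did not overlap, and 3 non-tumour arrays were at the floor. On the probe set used, Cenpa was at least 5.22 higher (SE 0.21, limma adjusted p = 6.26e-18), or at least 37.1-fold. Cenpp, a subunit of the CENP-O group, ranged from 5.99 to 8.54 with a median of 7.77 in tumours and was at the floor on all 6 non-tumour arrays. Its difference was at least 4.12 (SE 0.22, adjusted p = 4.40e-15). Cenpi and Cenph, subunits of the CENP-H-I-K-M group, were also at the floor on all 6 non-tumour arrays, and Cenpi was higher by at least 3.56 and Cenph by at least 2.55. Their partner subunit Cenpk was higher by at least 4.07, with 1 non-tumour array at the floor, and Cenpm by 2.05. Cenpn, which binds CENP-A nucleosomes, was higher by 2.90, and its partner Cenpl by at least 2.06. Cenpq, another CENP-O group subunit, was higher by 2.07. Cenpt, a histone-fold protein that recruits the Ndc80 complex, had the smallest called difference of this layer at 1.27 (SE 0.14, adjusted p = 1.42e-08), with 7.28 to 8.23 in tumours and 6.26 to 7.08 in tissue without tumour.

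Cenpc1, now named Cenpc, which ties CENP-A chromatin to the Mis12 complex, was the exception in this layer. It ranged from 6.35 to 9.18 with a median of 8.34 in tumours and stood at 7.68, 8.04, 7.75, 7.52, 7.30 and 8.11 on non-tumour arrays 1 to 6. The ranges overlapped, and the lowest tumour values were those of Olig2 array 6 and hGFAP array 4. The difference of 0.53 (SE 0.29) did not pass (adjusted p = 0.135), though it passed without the 7 dimmest arrays at 0.86 (adjusted p = 0.000113) and with array weights at 0.62 (adjusted p = 0.00821).

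The microtubule attachment group split. All 4 subunits of the Ndc80 complex, which grips microtubules directly, were higher, and so were Dsn1 and Knstrn. Spc25 had the largest difference in this group, with 7.46 to 9.38 and a median of 8.80 in tumours, against 5.79, 3.37, 5.18, 3.37, 3.37 and 4.75 on non-tumour arrays 1 to 6, and it was higher by at least 4.44 (SE 0.28, adjusted p = 1.50e-13). Nuf2 was higher by at least 3.67, Spc24 by at least 3.58 and Ndc80 itself by at least 3.06, with 5 of its 6 non-tumour arrays at the floor. Knstrn, which joins Spag5 at kinetochores, was higher by at least 2.78, and Dsn1 of the Mis12 complex by 2.13 with 6.89 to 7.97 in tumours, against 4.54 to 5.72 in tissue without tumour. The other Mis12 complex members behaved differently from Dsn1 on the probe sets used. Mis12 ranged from 4.48 to 7.24 with a median of 6.45 in tumours and from 5.18 to 6.53 with a median of 5.95 in tissue without tumour, and its difference of 0.41 (SE 0.27) did not pass (adjusted p = 0.213).

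Nsl1 and Zwint went the other way on the probe set with the highest mean, and most of their other probe sets did not follow. Zwint links Knl1 to the Rod-Zw10-Zwilch complex, and in rat brain it has also been described as a partner of the synaptic protein Snap25. Its log2 signal ranged from 9.33 to 10.94 with a median of 10.27 in tumours and stood at 10.91, 11.36, 11.05, 11.15, 11.24 and 11.10 on non-tumour arrays 1 to 6. All tumour arrays but Ptc1 array 2 lay below every non-tumour array. Zwint fell by 0.83 (SE 0.18, adjusted p = 0.000340). Of its 7 probe sets 6 passed the filter. Fitted as separate features among 24752 probe sets, 1 further set was lower, by 1.22 (adjusted p = 0.0144), and 3 were higher, by 1.91 (adjusted p = 7.35e-07), 1.09 (adjusted p = 0.00136) and 0.50 (adjusted p = 0.0236), and the last stood at 0.48 (adjusted p = 0.0580). The mean of its probe sets gave 0.32 (adjusted p = 0.135), so the direction for Zwint rests on the probe set. Nsl1, a Mis12 complex subunit, ranged from 4.99 to 7.65 with a median of 6.49 in tumours and from 6.82 to 7.30 with a median of 7.02 in tissue without tumour. Its difference was -0.50 (SE 0.23, adjusted p = 0.0658) on the probe set used and 1.95 (adjusted p = 6.62e-08) on its other probe set. The lower difference passed without Olig2 array 7 at -0.52 (adjusted p = 0.0450) and without hGFAP array 2 at -0.54 (adjusted p = 0.0324). It also passed with no rescaling at -0.85 (adjusted p = 0.0221) and with array weights at -0.47 (adjusted p = 0.0173). With the floor at the table median, -0.48 passed at adjusted p = 0.0480. Which transcripts these probe sets read was not examined.

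**Figure D2:**
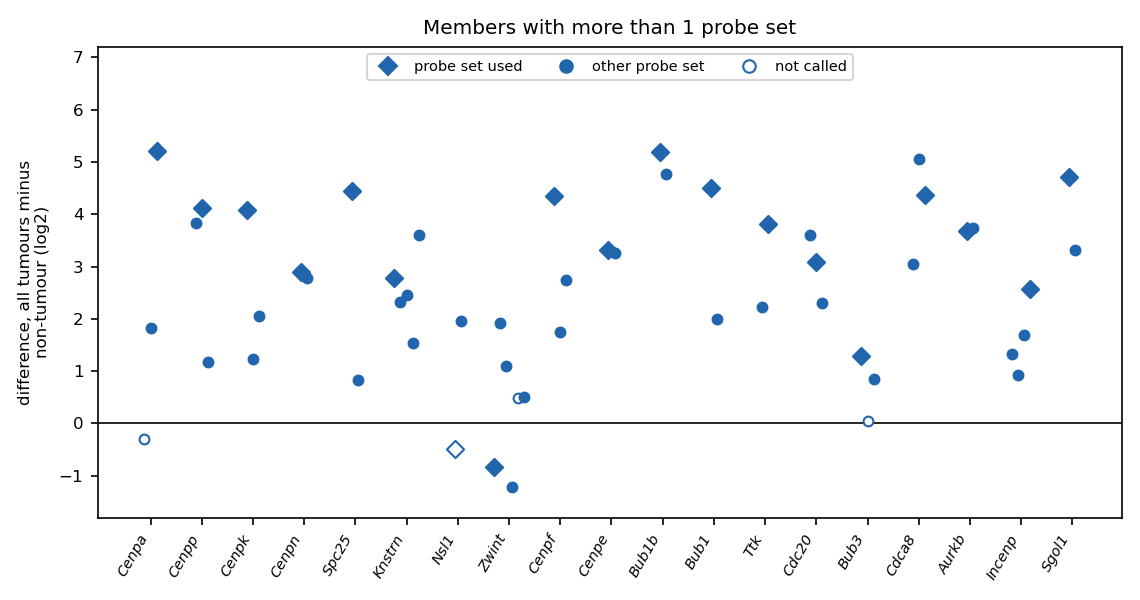
Difference in log2 signal, all tumours minus non-tumour, for each passing probe set of the 19 members with more than 1, with diamonds for the probe set used and circles for the others, filled where the adjusted p was under 0.05. Zwint and Nsl1 have points on both sides of 0, and Cenpa has 1 open point below 0 beside 5.22 and 1.82.

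Probe sets of the other members gave the same direction, with few exceptions. Cenpa had 3 passing probe sets, at 5.22, 1.82 and -0.29, the last not called (adjusted p = 0.553). Bub3 had 1 passing probe set at 0.05 (adjusted p = 0.859) beside 1.30 and 0.85. Bub1 was higher by 2.01 on its other passing probe set, against 4.50 on the one used. Aurkb, Cdc20, Cdca8 and Knstrn had another probe set with a larger difference than the one used.

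All 3 corona genes were higher. The corona is the outermost layer of the kinetochore and widens before microtubules attach. Cenpf ranged from 8.45 to 10.02 with a median of 9.53 in tumours, against 5.62, 5.52, 5.09, 3.83, 5.49 and 5.85 on non-tumour arrays 1 to 6, and was higher by 4.35 (SE 0.21, adjusted p = 4.46e-16). Cenpe, a kinesin that carries chromosomes to the spindle equator, was higher by 3.31. Zwilch, a subunit of the complex that brings dynein to kinetochores, was higher by at least 3.24 (SE 0.29, adjusted p = 1.07e-10), with 5.65 to 8.31 in tumours and 3.37 to 4.80 in tissue without tumour.

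Of the 7 checkpoint genes 6 were higher, and only Mad1l1 was not called. Bub1b encodes BubR1, a subunit of the complex that inhibits Cdc20. It ranged from 7.15 to 9.41 with a median of 9.02 in tumours, against 3.37, 3.37, 3.44, 3.37, 3.37 and 5.64 on non-tumour arrays 1 to 6. The value of non-tumour array 6 lay apart from the other 5 and still below every tumour array. Bub1b was higher by at least 5.18 (SE 0.26, adjusted p = 9.16e-16). Bub1, the kinase that recruits checkpoint proteins to kinetochores, was higher by at least 4.50, and Mad2l1, the Cdc20-binding checkpoint protein, by 3.84. Ttk, the kinase Mps1 that starts the signal, was higher by at least 3.82. Cdc20, the target of the checkpoint, had 9.59 to 10.91 in tumours and 6.35 to 8.44 in tissue without tumour and was higher by 3.09. Bub3, the shared partner of Bub1 and BubR1, had the smallest called difference of the group, 1.30 (SE 0.13, adjusted p = 8.70e-10), with 10.37 to 10.95 in tumours and 8.91 to 9.79 in tissue without tumour.

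Mad1l1 anchors Mad2 at kinetochores. It ranged from 3.37 to 6.89 with a median of 6.12 in tumours, against 5.24, 5.22, 5.48, 4.85, 4.83 and 4.87 on non-tumour arrays 1 to 6. The 2 tumour arrays at the floor were hGFAP array 4 and Ptc1 array 1, whereas Ptc1 array 2 stood at 6.84. Over all tumours the difference was 0.58 (SE 0.36, adjusted p = 0.185). It was called without Ptc1 array 1, at 0.93 (adjusted p = 0.0121), with array weights at 0.66 (adjusted p = 0.0365) and with the floor at the table median at 0.50 (adjusted p = 0.0202).

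All 4 genes of the chromosomal passenger complex, which corrects faulty attachments, were higher. Birc5, the subunit survivin, ranged from 8.15 to 10.10 with a median of 8.88 in tumours, against 3.37, 3.87, 3.37, 3.37, 3.60 and 5.22 on non-tumour arrays 1 to 6, the highest again being array 6. It was higher by at least 5.13 (SE 0.23, adjusted p = 4.33e-17). Cdca8, the subunit borealin, was higher by 4.38 with no array at the floor. Aurkb, the kinase of the complex, was higher by 3.68. Incenp, its scaffold, had the smallest difference of the group at 2.57 (SE 0.22, adjusted p = 5.32e-11), with 8.26 to 10.18 in tumours and 6.35 to 7.50 in tissue without tumour.

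The other mitotic kinases and the cohesion protectors were higher as well, 2 of 2 in each group. Plk1, a kinase that acts at kinetochores and spindle poles, ranged from 5.98 to 8.91 with a median of 7.97 in tumours and from 3.37 to 4.46 in tissue without tumour, a difference of at least 4.18 (SE 0.26, adjusted p = 5.76e-14). Aurka, a spindle pole kinase, was higher by 3.69 (SE 0.19, adjusted p = 7.37e-16). Sgol1, now Sgo1, which shields centromeric cohesin until anaphase, ranged from 6.75 to 8.64 with a median of 8.10 in tumours and was at the floor on all 6 non-tumour arrays. It had the smallest adjusted p of all members, 2.13e-18, at a difference of at least 4.70 (SE 0.18). Its 6 non-tumour values were tied at the floor and add no spread, so this SE and p are partly set by the floor. Sgol2a, now Sgo2a, best known for the same role in meiosis, was higher by at least 4.22 (SE 0.17, adjusted p = 8.72e-18).

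**Figure D3:**
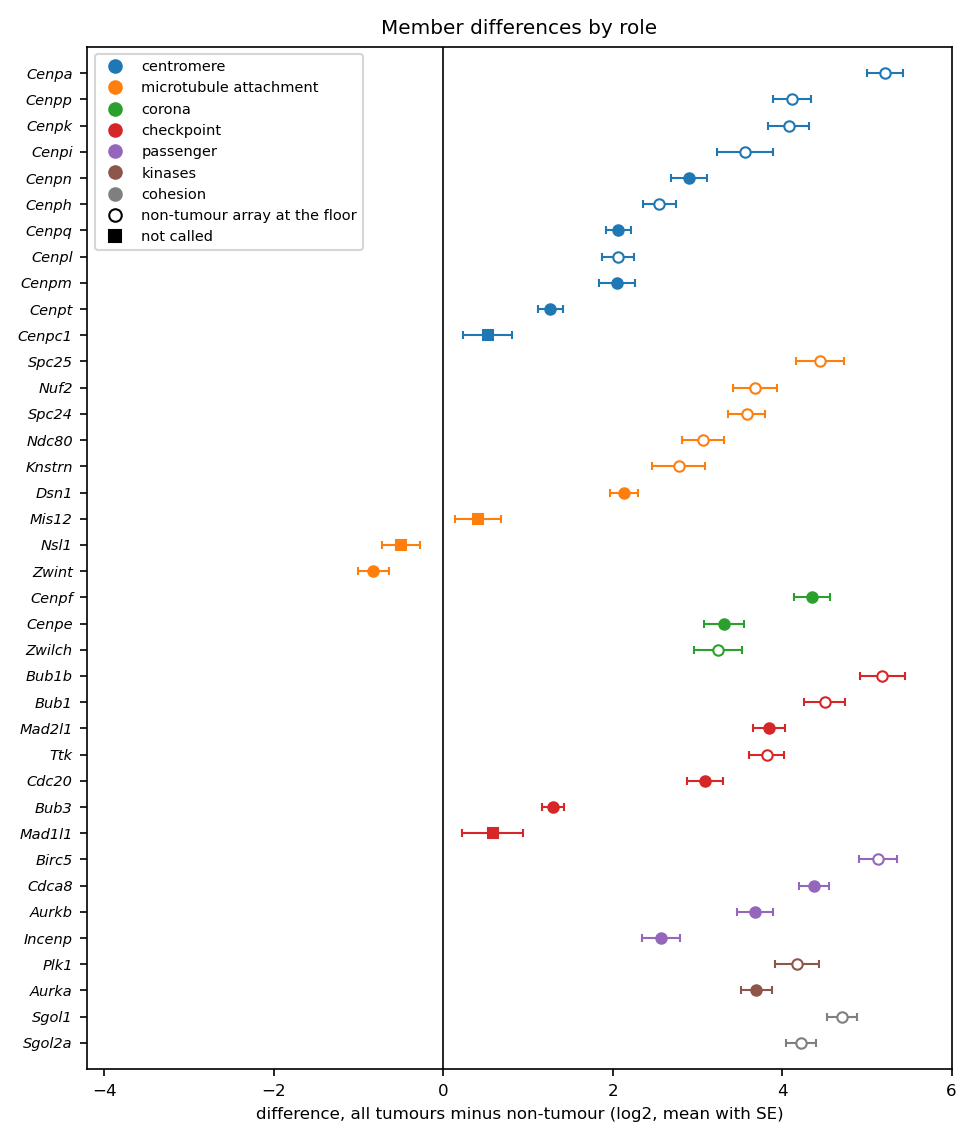
Difference in log2 signal, all tumours minus non-tumour (mean with its standard error), for the 38 members by role. Open symbols are the 19 members with at least 1 non-tumour array at the floor, whose differences are lower bounds, squares are the 4 members not called, and only Zwint and Nsl1 lie left of 0.

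Members and other pathway genes were listed with earlier results of these data known, so the medians set side by side here only describe these lists. The other genes were counted beside the members. Of 50 listed, 47 were on the table, and 38 were higher, 1 was lower and 8 were not called over all tumours. Their median difference was 1.36, against 3.44 for the members. The 4 highest were Ube2c, the ubiquitin-conjugating enzyme of the anaphase-promoting complex, at 5.63 or more, Cdk1, the mitotic kinase, at 5.55, Kif2c, a microtubule depolymerase, at 4.97 or more, and Ccnb2, a Cdk1 partner, at 4.02. The 4 lowest were Clasp2, a microtubule stabiliser, which was lower at -0.69 (adjusted p = 0.0308), Pttg1, the separase inhibitor securin, at -0.22 (adjusted p = 0.545), Anapc1, a subunit of the anaphase-promoting complex, at 0.04 (adjusted p = 0.884), and Tpx2, an activator of Aurka, at 0.06 (adjusted p = 0.819). On the probe set with the highest variance, Tpx2 stood at 4.51 (adjusted p = 9.82e-15) and Anapc1 at 0.69 (adjusted p = 0.00552). Clasp2 was not called there, at -0.47 (adjusted p = 0.420). Clasp2 lost its call without any 1 of Ptc1 array 2, non-tumour array 1 or non-tumour array 2, at -0.57, -0.51 and -0.65 (adjusted p = 0.0807, 0.128 and 0.0669).

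Marker lists of the cell types in these samples moved with the comparison. The mean log2 signal of the 5 cycling-cell markers ran from 9.72 to 11.10 in tumours and from 5.27 to 7.10 in tissue without tumour, and 5 of 5 were higher. The 4 markers of granule neuron precursors and Hedgehog tumours, 4 of 4 being higher, ran from 9.98 to 11.14 in tumours. In tissue without tumour they stood at 6.51 on array 6, from the Ptc1+/- line, and at 4.78 to 5.32 on the other arrays. Mature granule neuron markers, 5 of 5 lower, ran from 5.72 to 9.01 in tumours and from 11.36 to 11.82 in tissue without tumour, and Purkinje cell markers, 5 of 5 lower, from 4.53 to 8.59 in tumours and from 11.30 to 11.84 in tissue without tumour. Oligodendrocyte markers (4 of 4 lower) ran from 4.68 to 6.76 in tumours and lay at 8.24 or above in tissue without tumour. Astrocyte and Bergmann glia markers (5 of 5 lower) ran from 6.47 to 9.10 in tumours and from 9.56 to 9.93 in tissue without tumour. Microglia markers (5 of 5 higher) ran from 8.21 to 10.09 in tumours and from 6.25 to 7.01 in tissue without tumour. Of the 3 endothelial markers tested 1 was lower. The part of cell composition in the members' differences was not tested.

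**Figure D4:**
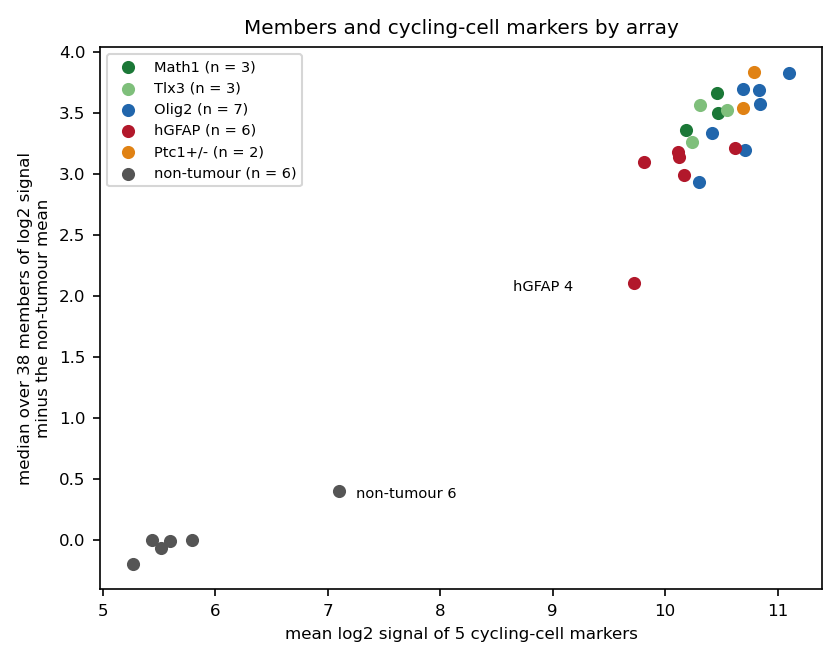
Median over the 38 members of log2 signal minus the non-tumour mean (vertical axis) against the mean log2 signal of the 5 cycling-cell markers (horizontal axis), 1 point per array, coloured by group. Tumour arrays lie at 2.11 to 3.84 and non-tumour arrays at -0.20 to 0.40, and hGFAP array 4 and non-tumour array 6 are labelled.

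Each tumour group was then set against the same 6 non-tumour arrays, so these comparisons share their controls and are not independent of each other. The same 33 members were higher in each of the 5 groups, against 12.1% of all genes. In Math1 tumours 33 members were higher and 1 lower, with a median difference of 3.64, where 37.4% of genes were called, 19.3% higher and 18.1% lower. In Tlx3 tumours 33 were higher and none lower at a median of 3.54 (40.3% of genes called, 19.7% higher and 20.6% lower). In Olig2 tumours 34 were higher and 2 lower at a median of 3.38 (49.6% of genes called, 24.7% higher and 25% lower). In hGFAP tumours 33 were higher and 1 lower at a median of 3.04 (41.7% of genes called, 22.5% higher and 19.2% lower), and without hGFAP array 4 the count of calls stayed at 34. In Ptc1 tumours 33 were higher and 1 lower at a median of 3.60 (36.3% of genes called, 17.9% higher and 18.4% lower).

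The extra calls in Olig2 tumours were Mad1l1 and Nsl1. Mad1l1 was higher there by 1.24 (SE 0.42, limma adjusted p = 0.0159), with 5.45 to 6.89 in the 7 Olig2 tumours and 4.83 to 5.48 in tissue without tumour, so that the lowest Olig2 array lay within the range of the controls. The call was lost with no rescaling at 0.57 (adjusted p = 0.303) and against controls of the Olig2 and hGFAP lines only at 1.01 (adjusted p = 0.153). Nsl1 was lower there by the probe set used, at -0.85 (SE 0.26, adjusted p = 0.00861), and lost this call without the 7 dimmest arrays, of which 5 are Olig2 tumours, at -0.63 (adjusted p = 0.104). Zwint was lower in Math1 tumours at -0.86 (adjusted p = 0.0128), in Olig2 tumours at -0.87 (adjusted p = 0.00117), in hGFAP tumours at -1.04 (adjusted p = 0.000347) and in Ptc1 tumours at -0.89 (adjusted p = 0.0269). Its Tlx3 difference was -0.48 (adjusted p = 0.161). That difference passed with quantile normalization at -0.69 (adjusted p = 0.0447) and with the 3' to 5' ratio as a covariate at -0.62 (adjusted p = 0.0275). It also passed with array weights at -0.47 (adjusted p = 0.0174). With only the groups compared and without the 7 dimmest arrays, -0.48 passed at adjusted p = 0.0116 and 0.0274. The mean of probe sets gave 0.45 (adjusted p = 0.184). The Math1 call was lost with no rescaling at -0.78 (adjusted p = 0.214). With the mean of probe sets the calls were lost in hGFAP tumours at -0.03 (adjusted p = 0.917) and in Olig2 tumours at 0.42 (adjusted p = 0.0966). They were lost there also in Math1 tumours at 0.15 (adjusted p = 0.704) and in Ptc1 tumours at 0.62 (adjusted p = 0.117). With the probe set of highest variance, the Olig2 call was lost at -0.68 (adjusted p = 0.261) and the Ptc1 call at -0.67 (adjusted p = 0.501). Against controls of the Olig2 and hGFAP lines only, Zwint lost its call in Math1 tumours at -0.83 (adjusted p = 0.0621) and in Ptc1 tumours at -0.86 (adjusted p = 0.0846). In Ptc1 tumours, where the arrays stood at 9.55 and 10.94, the call was lost without array 1, at -0.20 (adjusted p = 0.719). The Nsl1 differences in the other groups were not called, at -0.81 for Tlx3 (adjusted p = 0.0561), -0.42 for Math1 (adjusted p = 0.362), -0.34 for hGFAP (adjusted p = 0.334) and -0.07 for Ptc1 tumours (adjusted p = 0.908). Its Tlx3 difference passed without Olig2 array 4, 6 or 7 or hGFAP array 2, at adjusted p from 0.0274 to 0.0475. Those arrays enter this comparison only through the shared variance. It also passed with median scaling, the floor at the table median, only the groups compared, array weights and the replicate block, at adjusted p from 0.00339 to 0.0471. The sign reversed with the mean of probe sets at 0.63 (adjusted p = 0.0394) and the probe set of highest variance at 2.08 (adjusted p = 3.67e-05).

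The group means of 3 members not called over all tumours are given with their spread. Cenpc1 averaged 8.37 ± 0.12 in Math1 tumours (SD, n = 3), 8.37 ± 0.25 in Tlx3 tumours (n = 3), 7.99 ± 1.00 in Olig2 tumours (n = 7), 8.16 ± 0.71 in hGFAP tumours (n = 6) and 8.41 ± 0.72 in Ptc1 tumours (n = 2), and 7.73 ± 0.31 in tissue without tumour (n = 6). Mis12 averaged 6.49 ± 0.08 in Math1 tumours, 6.16 ± 0.25 in Tlx3 tumours, 6.51 ± 0.48 in Olig2 tumours, 6.13 ± 0.92 in hGFAP tumours and 6.57 ± 0.94 in Ptc1 tumours, and 5.96 ± 0.50 in tissue without tumour (SD, same n). Mad1l1 averaged 6.09 ± 0.33 in Math1 tumours, 5.48 ± 0.72 in Tlx3 tumours, 6.32 ± 0.49 in Olig2 tumours, 5.33 ± 1.04 in hGFAP tumours and 5.10 ± 2.45 in Ptc1 tumours, and 5.08 ± 0.27 in tissue without tumour.

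**Figure D5:**
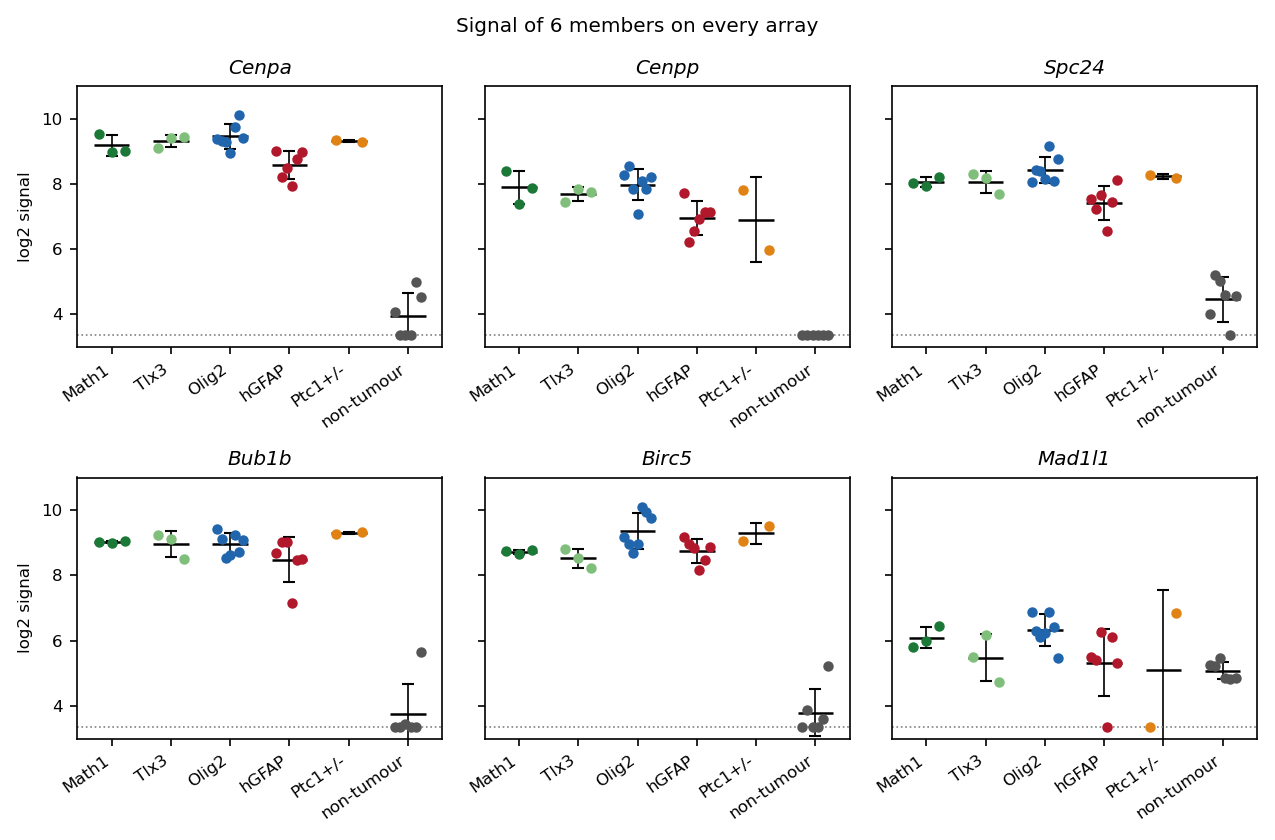
Log2 signal of 6 members on every array (points), with the group mean (bar) and SD (whisker), in the 5 tumour groups and in tissue without tumour, and the dotted line at the floor of 3.37. Cenpa, Cenpp, Spc24, Bub1b and Birc5 are high in all tumour groups, and Mad1l1 overlaps tissue without tumour and has 2 tumour arrays at the floor.

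Among the tumours most members differed less than between tumours and controls. The range of the 5 tumour group means had a median of 0.63 over the 38 members, from 0.22 for Sgol2a to 1.37 for Cenpi. For Mad1l1, Nsl1 and Mis12 it exceeded the size of the difference from tissue without tumour, at 1.22, 0.78 and 0.45 in that order. The hGFAP group had the lowest of the 5 means for 24 members, and for 17 when hGFAP array 4 was left out. The Ptc1 group had the highest mean for 18 members and the Olig2 group for 15. These orders were not counted over all genes, and the Ptc1 mean rests on 2 arrays, so they are not read as particular to the members. Deviations of members from their group means also moved together over the 21 tumour arrays, with a mean pairwise r of 0.31, against 0.01 over all genes, and 0.17 over the 20 arrays without hGFAP array 4. Members share arrays and array quality, so these values are descriptions.

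In hGFAP tumours, whose driver is active in broad neural progenitors, 3 members were lower than in Olig2 tumours and none was higher, against 2.99% of genes called, 1.91% higher and 1.07% lower. Of the 38 differences 35 were below 0, with a median of -0.35, against a median of 0.09 over all genes. Unadjusted, 12 members had p under 0.05, all of them lower. No share of all genes was taken for such unadjusted counts, so they only describe the members. Cenpp stood at 7.73, 6.21, 6.55, 6.92, 7.13 and 7.14 on hGFAP arrays 1 to 6, against 7.08 to 8.54 with a median of 8.09 in the 7 Olig2 tumours. The ranges overlapped because Olig2 array 4 was the lowest of its group and lay below hGFAP arrays 1, 5 and 6. Cenpp fell by 1.03 (SE 0.26, limma adjusted p = 0.0312). Spc24 stood at 7.54, 7.23, 7.65, 6.56, 7.46 and 8.11 on hGFAP arrays 1 to 6, against 8.05 to 9.16 with a median of 8.39 in Olig2 tumours, and fell by 1.00 (SE 0.26, adjusted p = 0.0317). Only hGFAP array 6 reached into the range of the Olig2 arrays. Cenpa stood at 9.02, 8.22, 8.47, 7.94, 8.77 and 8.98, against 8.93 to 10.10 with a median of 9.37 in Olig2 tumours, and fell by 0.89 (SE 0.24, adjusted p = 0.0434). Here hGFAP arrays 1 and 6 lay within the Olig2 range. With the mean of its probe sets Cenpa stood at -0.18 (adjusted p = 0.680), and its other 2 passing probe sets stood at -0.51 and 0.86, neither called. Cenpm came next at -0.86 (SE 0.25, adjusted p = 0.0514), with 7.08 ± 0.39 in hGFAP (SD, n = 6) and 7.93 ± 0.43 in Olig2 tumours (SD, n = 7).

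These 3 calls rested on single arrays and on the processing. The count was 0 without Olig2 array 5, Olig2 array 7, hGFAP array 2 or hGFAP array 5, 1 without Olig2 array 6, hGFAP array 3 or hGFAP array 4, and 6 without Olig2 array 3. Cenpa also lost its call, at adjusted p from 0.0501 to 0.0528, without any 1 of Math1 arrays 2 and 3, Tlx3 arrays 1 to 3 and non-tumour array 1, which enter only through the shared variance. Without hGFAP array 4 the median member difference was -0.19, 33 of 38 were below 0, 5 had an unadjusted p under 0.05, and Cenpp kept its call at -1.03 (adjusted p = 0.0450), whereas Cenpi stood at -0.38, against -0.88 with all arrays. With only the 2 groups in the model, with the 3' to 5' ratio as a covariate, with no rescaling or without the 7 dimmest arrays, the count was 0. Cycling-cell markers moved with these members, at 9.72 to 10.62 in hGFAP and 10.30 to 11.10 in Olig2 tumours with 1 of 5 called lower. Of the astrocyte and Bergmann glia markers 2 of 5 were higher in hGFAP tumours, where their mean ran from 8.42 to 9.10, against 7.58 to 8.64 in Olig2 tumours. Of the mature granule neuron markers 1 of 5 was higher (6.85 to 8.95 in hGFAP and 5.92 to 9.01 in Olig2 tumours), and of the microglia markers 1 of 5 (8.21 to 10.01 in hGFAP and 8.52 to 10.09 in Olig2 tumours). No Purkinje cell marker of 5 was called, at a median difference of 1.00. Array brightness overlapped, with trimmed means of 74.1 to 153 in hGFAP and 42.6 to 205 in Olig2 tumours. Of the 7 dimmest arrays, 5 were Olig2 tumours and 1 was an hGFAP tumour. The 3' to 5' ratio ran from 0.32 to 1.88 in hGFAP and from -0.15 to 1.78 in Olig2 tumours. It overlapped only through Olig2 arrays 3 and 4, at 1.72 and 1.78. The other Olig2 arrays lay at 0.31 or below, under every hGFAP array, so ratio and group largely went together. The part of brightness and of this ratio in the difference was not tested beyond these refits.

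Over the 4 SmoM2 groups together no member passed the limma F test, against 0.946% of genes. The smallest adjusted p was 0.0859 for Cenpm, and 8 members had an unadjusted p under 0.05. Here and in the comparisons that follow, unadjusted counts again have no share of all genes beside them. In Ptc1 tumours against the 4 SmoM2 groups no member was called, against 0.547% of genes (0.0444% higher and 0.503% lower), and none had an unadjusted p under 0.05. Their differences ran from -0.72 for Cenpp to 0.82 for Knstrn, with 30 of 38 above 0 and a median of 0.20, and a median SE of 0.34. In hGFAP and Olig2 tumours against Math1 and Tlx3 tumours no member was called, against 0.259% of genes. The 4 members with an unadjusted p under 0.05 were Cenpi at -0.93 (SE 0.34, adjusted p = 0.205), Zwilch at -0.73 (adjusted p = 0.245), Cenpm at 0.50 (adjusted p = 0.268) and Ndc80 at 0.52 (adjusted p = 0.323). With no rescaling, 23 members were called lower in this comparison, in which the Olig2 group holds 5 of the 7 dimmest arrays. The share of all genes called with no rescaling was not taken, so this count is not read as particular to the members. In Tlx3 against Math1 tumours no member and none of all genes was called (0% of genes), with no member at an unadjusted p under 0.05, differences from -0.61 to 0.60 and a median SE of 0.37.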

How the data were processed

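Deposited values were linear signal intensities of 45101 probe sets on 27 arrays, made by the authors with MAS5, per the submitters' processing notes; its version and scaling target are not given in the sources used here. Low intensities can be background, since detection calls were not used. Arrays were brought to 1 trimmed mean (124, with 2% cut from each end), signals under the 20th percentile of the table (10.3) were raised to it, and log2 values were taken. Probe sets above the table median on at least 3 arrays were kept. Of the probe sets, 34958 were annotated to 1 gene, 932 to several, and 9211 were not listed in the annotation used, and a gene was read from the passing probe set with the highest mean. Control probe sets were left out, 0 arrays were identical, and 0 value columns were left unused.

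Groups were compared in 1 limma model (limma 3.58.1, R 4.3.3) with a mean per group, trend and robust moderation, 21 residual degrees of freedom and two-sided p-values adjusted by Benjamini-Hochberg over 13527 genes. The F test over the SmoM2 groups is one-sided. The number of arrays limits the precision. The members, lists and tests were chosen with earlier results of these data known. Named in full were the extremes of each role, members not called or lower, members called between tumour groups, members whose probe sets differ in direction, and the 4 highest and 4 lowest other pathway genes. Alternatives changed the scaling, floor, filter, probe set, arrays in the model, moderation, array weights, replicate block, 3' to 5' ratio, brightness and controls, and left out each array.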

Additional observations from a re-analysis of the deposited data

Results flagged for a closer look

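In 13 of 110 combinations of member and group with 4 to 10 arrays, 1 array lay far from the others by Dixon's test at 95%. Chance gives about 1 in 20 for values without ties, and the 2 shares cannot be compared here because signals raised to the floor are tied. Of the other 5 non-tumour arrays, all were at the floor for Ndc80, 4 for Bub1 and for Bub1b and 3 for Birc5, so array 6 was set apart there partly by the floor. Of the 13, 5 were non-tumour array 6, the Ptc1+/- line. Bub1b stood there at 5.64 (next highest 3.44), Birc5 at 5.22 (3.87), Bub1 at 4.06 (3.56) and Ndc80 at 3.92 (floor, 3.37), all higher than on the other controls, and Cenpe was lower at 3.53 (next lowest 4.44). Another 4 were hGFAP array 4, each lower than on the other hGFAP arrays. Bub1b stood there at 7.15 (next lowest 8.48), Aurka at 7.14 (8.29), Cenpi at 3.44 (5.96) and Mad1l1 at the floor of 3.37 (5.31). The others were single. Cenph was high on Olig2 array 5 at 7.01 (next 6.42), Dsn1 low on Olig2 array 1 at 6.99 (7.48), Sgol1 low on Olig2 array 3 at 7.50 (8.05), and Aurkb low on non-tumour array 4 at 3.88 (4.89).

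In hGFAP tumours 3 members differed from Olig2 tumours by the limma test of the difference, Cenpp by -1.03 (adjusted p = 0.0312), Cenpa by -0.89 (adjusted p = 0.0434), and Spc24, which fell by 1.00 (adjusted p = 0.0317).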

How the results depend on the processing

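Against tissue without tumour, the count of members called in either direction stayed within 1.5 times under every alternative run, at 34 to 37 for all tumours, 32 to 36 for Math1, 33 to 36 for Tlx3, 33 to 37 for Olig2, 32 to 35 for hGFAP and 30 to 36 for Ptc1 tumours. Leaving out single arrays gave 34 to 35 for all tumours, 33 to 34 for Tlx3, 36 for Olig2 and 34 for each of the other 3 groups. For hGFAP against Olig2 tumours, with 3 called, the count was 0 with no rescaling, with only the groups compared, with the 3' to 5' ratio as a covariate and without the 7 dimmest arrays, 1 with the floor at the 10th percentile and with array weights, and 5 with the floor at the table median, and it ran from 0 to 6 when single arrays were left out. Among the 4 SmoM2 groups, with 0 called, it was 2 with no rescaling, with the floor at the table median and with array weights, and 0 to 1 without single arrays. For the hGFAP and Olig2 groups together, against Math1 and Tlx3, it was 23 with no rescaling, and for Ptc1 against SmoM2 it was 1 without the dimmest arrays. The cause of these changes was not tested. Except with no filter over all tumours, no share of all genes was taken under these alternatives, so the counts only describe the members.

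Over all pairs, replicate numbers showed little sign of pairing the samples. Same-numbered arrays of different groups had a median correlation of deviations of 0.03 over 49 pairs, from -0.34 to 0.28. Pairs with other numbers had 0.00 over 244 pairs, from -0.32 to 0.57. A median cannot exclude pairing for some of the numbers. With the replicate block 1 member was called for hGFAP against Olig2 tumours, and Nsl1 over all tumours passed at -0.67 (adjusted p = 0.0123).

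Of 2591 refits of single genes, 2472 kept direction and call, 62 lost the call, 31 gained it and 26 changed sign. With the mean of probe sets, Zwint stood at 0.32 over all tumours, 0.15 for Math1, 0.45 for Tlx3, 0.42 for Olig2 and 0.62 for Ptc1 tumours, and Nsl1 at 0.73, 0.77, 0.63, 0.69 and 0.79 in the same groups and at 0.76 in hGFAP tumours. With the probe set of highest variance, Nsl1 stood at 1.95 over all tumours, 1.95 for Math1, 2.08 for Tlx3, 2.22 for Olig2, 1.86 for hGFAP and 1.64 for Ptc1 tumours, and Pttg1 at 0.0783. Over all tumours, Anapc1 stood at -0.31 with no rescaling and -0.10 with the replicate block, Pttg1 at 0.0490 without the dimmest arrays, and Tpx2 at -0.29 with no rescaling, -0.000171 with array weights, -0.0241 without the dimmest arrays, -0.00722 with controls of the Olig2 and hGFAP lines only and from -0.0821 without non-tumour array 6 to 0.208 without non-tumour array 5. Fitting each passing probe set as a feature of its own was chosen after seeing the data. An alternative with only the groups compared was not run for all tumours, which uses every array. Signals near the floor limit the size of 19 member differences, and values tied at the floor can lower the spread behind their SE and p.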
